A study of Mus musculus with 9 samples.

Results

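Iron-sulfur clusters are small inorganic cofactors built inside mitochondria and carried by enzymes of respiration, lipoate and haem synthesis, DNA repair and translation. A desulfurase supplies sulfur to a scaffold protein, electrons come from a ferredoxin, chaperones release the finished cluster, and late-acting factors and a separate cytosolic machinery hand it to client proteins. The liver is the main iron store of the body, and cluster synthesis is among the main uses of the iron that enters mitochondria. The genes described here are 30 named components of that pathway in mouse liver, taken from the count tables by gene symbol. All 30 were found among 23420 listed genes, and all 30 passed the filter on low counts that left 13020 genes for testing. Most are assembly factors, transporters or proteins that hold clusters themselves, and lipoyl synthase (Lias) is the enzyme among them that uses a cluster for catalysis outside assembly.

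Livers came from wild-type C57BL/6 males that ate AIN-93G, a purified soy-free feed, from 5 weeks of age for 50 days and were harvested at 12 weeks. Libraries 1, 5 and 9, numbered as in the sample titles, came from the low-iron feed (2.5 mg/kg), libraries 2, 6 and 10 from the sufficient feed (37.5 mg/kg) and libraries 4, 8 and 12 from the high-iron feed (1000 mg/kg). Each diet had 3 mice and 1 RNA-seq library per mouse. The overload is dietary, in animals with intact iron regulation, and hemojuvelin knockout mice named in the protocol are not analysed here.

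Libraries held 22.0 M to 33.8 M (mega) reads in genes. The ribosomal precursor Rn45s took 43.7% of them in low-iron library 1 and 40.5% in high-iron library 12, against 12.5% to 23.8% in the other 7. Hamp, the hepatic hormone that answers to iron stores, averaged 9.09 ± 11.2 CPM (read counts relative to the scaled library size) on low iron, 199 ± 72.2 CPM on sufficient iron and 715 ± 212 CPM on high iron (SD, n = 3 each). It rose on high iron relative to low iron (log2 fold change 6.4 ± 0.95 SE, adjusted p = 0.029, edgeR quasi-likelihood test). Low-iron library 1 differed from its diet mates, with Hamp at 21.8 CPM against 0.805 and 4.62 CPM in libraries 5 and 9. All were below the 134 to 276 CPM of sufficient iron. The related gene Hamp2 was at 43.4 CPM in library 1, against 5.30 and 6.59 CPM in libraries 5 and 9. That value lay within the 31.4 to 52.3 CPM of sufficient iron. Bmp6, another label check, was at 2.42 CPM in library 1, against 1.98 and 1.90 CPM in libraries 5 and 9. These Bmp6 values were all below the 3.52 to 5.22 CPM of sufficient iron. Summed hepatocyte markers were high in every library (46887 to 71384 CPM), the pancreatic genes Prss2, Cpb1 and Pnlip and the globins Hbb-b1 and Hba-a1 were at 0 in all 9, and summed Kupffer cell markers ran from 81.6 to 187 CPM on low iron, 185 to 306 CPM on sufficient iron and 162 to 196 CPM on high iron. Multiply aligned reads were set aside, so a count of 0 for Hbb-b1 and Hba-a1 does not show that blood RNA was absent. Summed erythroid and blood markers ran from 87.3 to 126 CPM on low iron, 62.5 to 81.7 CPM on sufficient iron and 28.3 to 38.5 CPM on high iron. Alas2, the erythroid enzyme that starts haem synthesis and the 1 tested gene of those 5, fell on high iron relative to sufficient iron (log2 fold change -1.06, adjusted p = 0.0479) and relative to low iron (-1.58, adjusted p = 0.0113, edgeR). The summed pancreas markers were at 4.07 to 12.0 CPM in all libraries, and the part of either list in the members' values was not tested. In bulk liver RNA, fewer cells of a type and less RNA per cell cannot be told apart.

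None of the 30 genes passed the adjusted threshold of 0.05 in any comparison of diets. Between high and sufficient iron 0 of 30 were called, where the same test called 0.215% of all tested genes. Low against sufficient iron gave 0 of 30 against 0% of all genes, and high against low iron gave 0 of 30 against 0.507%. The test for any difference among the 3 diets and the trend along log10 of dietary iron also called 0 of 30, against 0.215% and 0.307% of all genes. DESeq2 and limma-voom likewise called 0 of 30 in each. Over all genes, in the same order of tests, DESeq2 called 202, 82, 349, 406 and 299. The all-gene counts from limma-voom were 26, 0, 64, 27 and 46. Over the alternative fits of the pairwise comparisons, the lowest adjusted p of a member was 0.0784, for Iscu between low and sufficient iron in DESeq2.

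**Figure D1:**
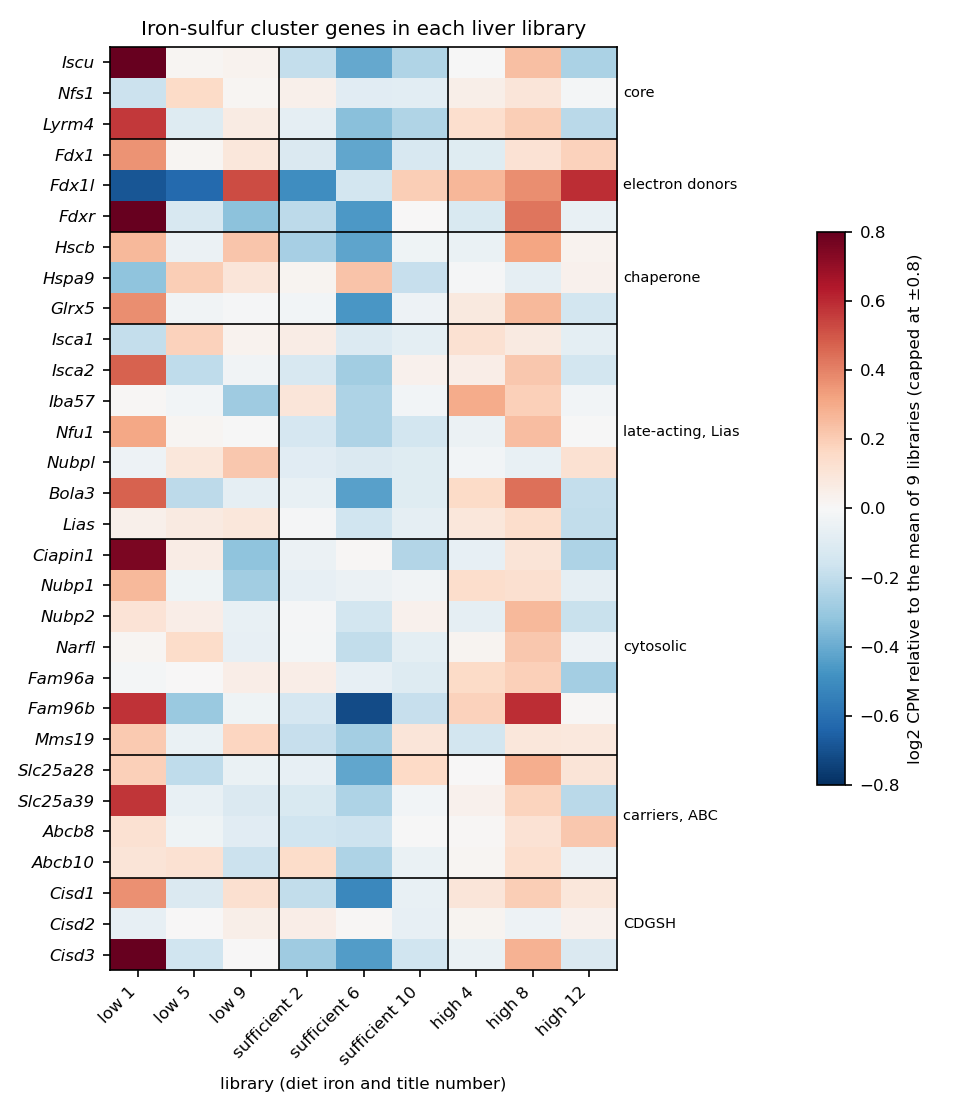
Log2 CPM of each of the 30 genes (rows, grouped by role) in each of the 9 libraries (columns, by diet iron), relative to the gene's mean over the 9. Low-iron library 1 and high-iron library 8 are mostly red and sufficient-iron library 6 mostly blue.

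Levels were read per kilobase of exon so that genes could be ranked. Slc25a39, a carrier needed for glutathione import into mitochondria, led at 188 CPM per kb, followed by the mitochondrial Hsp70 chaperone Hspa9 at 144 and the outer-membrane cluster protein Cisd1 at 118. Next came Cisd3 at 43.4, Iscu at 38.4, Fam96a at 28.9 and Isca1 at 25.8 CPM per kb. The lowest were Iba57 at 2.77, Mms19 at 2.17 and Fdx1l, the second mitochondrial ferredoxin, at 0.709 CPM per kb. Replicate spread within a diet had a median SD of 0.178 on the log2 CPM scale over the members, against 0.223 over all tested genes. It was smallest for Cisd2 (0.0536) and largest for Fdx1l (0.450), whose lowest library held 4 reads, against at least 38 reads in any library for every other member.

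Iscu encodes the scaffold on which clusters are built, Nfs1 the cysteine desulfurase and Lyrm4 the small protein that stabilises it. Iscu (chr5:113772748-113778288, plus strand, GRCm38) had 125, 71.6 and 72.4 CPM on low iron, 62.1, 53.3 and 59.9 CPM on sufficient iron, and 70.7, 83.6 and 59.5 CPM on high iron. All 3 low-iron libraries stood above all 3 sufficient-iron libraries, and the high-iron libraries overlapped both. Its log2 fold change was 0.62 ± 0.21 (SE) on low against sufficient iron (unadjusted p = 0.0155, adjusted p = 0.446, edgeR) and 0.29 ± 0.21 on high against sufficient iron (adjusted p = 0.676). Without low-iron library 1, which held the highest Iscu value, the low-iron difference was 0.29, and without high-iron library 8 the high-iron difference was 0.15. Nfs1 had 40.2, 50.4 and 45.8 CPM on low iron, 46.7, 42.6 and 42.8 CPM on sufficient iron, and 46.8, 48.5 and 44.9 CPM on high iron. The Nfs1 groups overlapped in every pair, and the 95% intervals of its fold changes lay between -0.20 and 0.32 on the log2 scale. Lyrm4 had 9.05, 5.67 and 6.38 CPM on low iron, 5.79, 4.81 and 5.13 CPM on sufficient iron, and 6.69, 6.98 and 5.23 CPM on high iron. Its groups overlapped too, and its largest difference, 0.41 ± 0.20 on low against sufficient iron (adjusted p = 0.454), was 0.19 without low-iron library 1.

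Electrons for cluster synthesis pass from the reductase Fdxr to a ferredoxin. Fdx1 (chr9:51943306-51963556, minus strand) is the adrenodoxin-type ferredoxin that serves mitochondrial cytochrome P450 enzymes. It had 60.0, 47.2 and 49.8 CPM on low iron, 43.1, 35.0 and 42.8 CPM on sufficient iron, and 43.8, 50.6 and 53.3 CPM on high iron. Every library of the low-iron and of the high-iron diet stood above the sufficient-iron libraries. The log2 fold change of Fdx1 was 0.37 ± 0.13 on low iron (adjusted p = 0.446) and 0.29 ± 0.13 on high iron (adjusted p = 0.541), each against sufficient iron. These became 0.26 without low-iron library 1 and 0.20 without sufficient-iron library 6. Fdx1l had 0.312, 0.329 and 0.811 CPM on low iron, 0.364, 0.483 and 0.635 CPM on sufficient iron, and 0.669, 0.723 and 0.855 CPM on high iron. The high-iron libraries stood just above the sufficient-iron ones, with a difference of 0.57 on the log2 scale and a 95% interval of -0.30 to 1.43. All 812 exon bases of Fdx1l are shared with a gene model on the same strand in GENCODE M21 (Gm38431), so its counts are uncertain. Fdxr had 23.6, 11.8 and 10.2 CPM on low iron, 11.1, 9.34 and 12.9 CPM on sufficient iron, and 11.8, 17.3 and 12.3 CPM on high iron. Low-iron library 1 stood apart for Fdxr on that diet, and the difference to sufficient iron was 0.43 ± 0.29 with it and -0.02 without it.

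Hscb and Hspa9 are the co-chaperone and chaperone that release a cluster from the scaffold, and Glrx5 is the glutaredoxin that carries it on. Hspa9 had 348, 499 and 466 CPM on low iron, 441, 508 and 383 CPM on sufficient iron, and 433, 414 and 446 CPM on high iron. Low-iron library 1 was the lowest of the 9 for this gene, and the groups overlapped in every pair. Hspa9 was the one member with a log2 fold change below 0 on high against sufficient iron (-0.04, 95% interval -0.39 to 0.30). Glrx5 averaged 69.0 ± 11.2 CPM on low iron, 56.7 ± 9.36 CPM on sufficient iron and 66.7 ± 9.44 CPM on high iron. Hscb averaged 2.74 ± 0.319 CPM on low iron, 2.09 ± 0.294 CPM on sufficient iron and 2.66 ± 0.376 CPM on high iron. Neither passed the test, with adjusted p-values of at least 0.468 in the pairwise comparisons.

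Among the late-acting factors, Isca1, Isca2 and Iba57 form 4Fe-4S clusters, Nfu1 and Bola3 pass them to lipoyl synthase and other clients, and Nubpl serves respiratory complex I. Nfu1 (chr6:87009236-87028461, plus strand) had 28.1, 22.9 and 22.6 CPM on low iron, 20.6, 19.0 and 20.4 CPM on sufficient iron, and 21.9, 26.9 and 22.6 CPM on high iron. As with Fdx1, the libraries of both other diets stood above those of the sufficient diet, by 0.29 ± 0.12 on low iron (adjusted p = 0.446) and 0.25 ± 0.12 on high iron (adjusted p = 0.565). Without low-iron library 1 the first was 0.17, and without high-iron library 8 the second was 0.15. Iba57 had the lowest p of the 30 between high and low iron. It had 13.5, 13.2 and 11.0 CPM on low iron, 14.4, 11.3 and 13.2 CPM on sufficient iron, and 16.5, 15.3 and 13.2 CPM on high iron, and the high-iron value of library 12 lay within the low-iron range. Its difference between high and low iron was 0.26 ± 0.14 (unadjusted p = 0.0963, adjusted p = 0.614), and its slope was 0.10 ± 0.053 per 10-fold more iron (adjusted p = 0.638). Nubpl averaged 9.0 ± 0.803 CPM on low iron, 7.86 ± 0.0703 CPM on sufficient iron and 8.53 ± 0.580 CPM on high iron, with a low-iron difference of 0.20 and a 95% interval of -0.07 to 0.47; without low-iron library 9 it was 0.13. Lias, the client in the set, averaged 24.3 ± 0.447 CPM on low iron, 21.9 ± 1.15 CPM on sufficient iron and 23.5 ± 2.86 CPM on high iron. Isca1 had 95% intervals between -0.24 and 0.34 in the 3 comparisons, and Isca2 and Bola3 had adjusted p-values of at least 0.570.

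The cytosolic machinery builds clusters on Nubp1 and Nubp2, takes electrons through Ciapin1, and hands clusters over through Narfl, Fam96a, Fam96b and Mms19. Fam96b, the targeting subunit that works with Mms19 on DNA-repair clients (chr8:104639838-104641965, minus strand), had 15.5, 8.45 and 10.1 CPM on low iron, 9.44, 6.31 and 9.11 CPM on sufficient iron, and 11.8, 15.7 and 10.5 CPM on high iron. All 3 high-iron libraries stood above the 3 sufficient-iron libraries, and low iron overlapped both. Its log2 fold change on high against sufficient iron, 0.62 ± 0.25 (95% interval 0.08 to 1.16), had the lowest p of the members in that comparison (unadjusted p = 0.029, adjusted p = 0.504, edgeR). That value was 0.43 without high-iron library 8 and 0.45 without sufficient-iron library 6. Ciapin1 had 29.4, 18.1 and 13.9 CPM on low iron, 16.9, 17.6 and 14.8 CPM on sufficient iron, and 16.7, 18.7 and 14.7 CPM on high iron. Low-iron library 1 was alone at the top, and the low-iron difference of 0.30 to sufficient iron was -0.05 without it. Nubp1, Nubp2, Narfl, Fam96a and Mms19 had log2 fold changes between -0.10 and 0.23 over the 3 comparisons.

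The set holds 4 carriers and transporters of the inner mitochondrial membrane. Abcb8, a half-transporter linked to mitochondrial iron export in mouse heart, had 32.1, 28.8 and 27.7 CPM on low iron, 26.4, 26.3 and 29.4 CPM on sufficient iron, and 29.7, 31.9 and 34.2 CPM on high iron. The high-iron libraries began just above the highest sufficient-iron one, with a log2 fold change of 0.22 ± 0.10 (adjusted p = 0.544). Slc25a28, the mitoferrin that imports iron outside the erythroid lineage, averaged 12.0 ± 1.68 CPM on low iron, 11.4 ± 2.25 CPM on sufficient iron and 13.3 ± 1.36 CPM on high iron. Slc25a39 averaged 350.4 ± 98.2 CPM on low iron, 286 ± 22.4 CPM on sufficient iron and 314 ± 42.7 CPM on high iron, with 464 CPM in low-iron library 1 and 263 to 353 CPM in the other 8 libraries. Abcb10, a haem-pathway transporter, had 95% intervals between -0.27 and 0.36.

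The 3 CDGSH proteins carry a cluster in place and sit in different membranes or compartments. Cisd1 (mitoNEET, outer mitochondrial membrane; chr10:71330480-71344954, minus strand) had 162, 116 and 137 CPM on low iron, 110, 87.8 and 121 CPM on sufficient iron, and 135, 144 and 134 CPM on high iron. High iron stood clear of sufficient iron, and the low-iron and sufficient-iron libraries overlapped. The log2 fold changes were 0.37 ± 0.15 on high iron (adjusted p = 0.512) and 0.38 ± 0.15 on low iron (adjusted p = 0.446), each against sufficient iron, and without sufficient-iron library 6 they were 0.25 on high iron and 0.26 on low iron. Without low-iron library 1 the low-iron value was 0.25. Cisd3, the matrix member (chr11:97685826-97688621, plus strand), had 66.4, 31.1 and 34.8 CPM on low iron, 28.5, 25.5 and 31.1 CPM on sufficient iron, and 33.5, 42.2 and 32.1 CPM on high iron. Low-iron library 1 was the highest by far, and the low-iron difference of 0.63 ± 0.25 (adjusted p = 0.446) was 0.21 without it. Its high-iron difference was 0.34, and 0.21 without high-iron library 8. Cisd2, the endoplasmic reticulum member altered in Wolfram syndrome, had 32.2, 33.7 and 34.9 CPM on low iron, 35.0, 33.9 and 32.1 CPM on sufficient iron, and 34.2, 32.8 and 34.5 CPM on high iron. Its 9 values lay within 32.1 to 35.0 CPM, and its 95% intervals between -0.20 and 0.21 on the log2 scale bound any diet difference most tightly among the members.

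**Figure D2:**
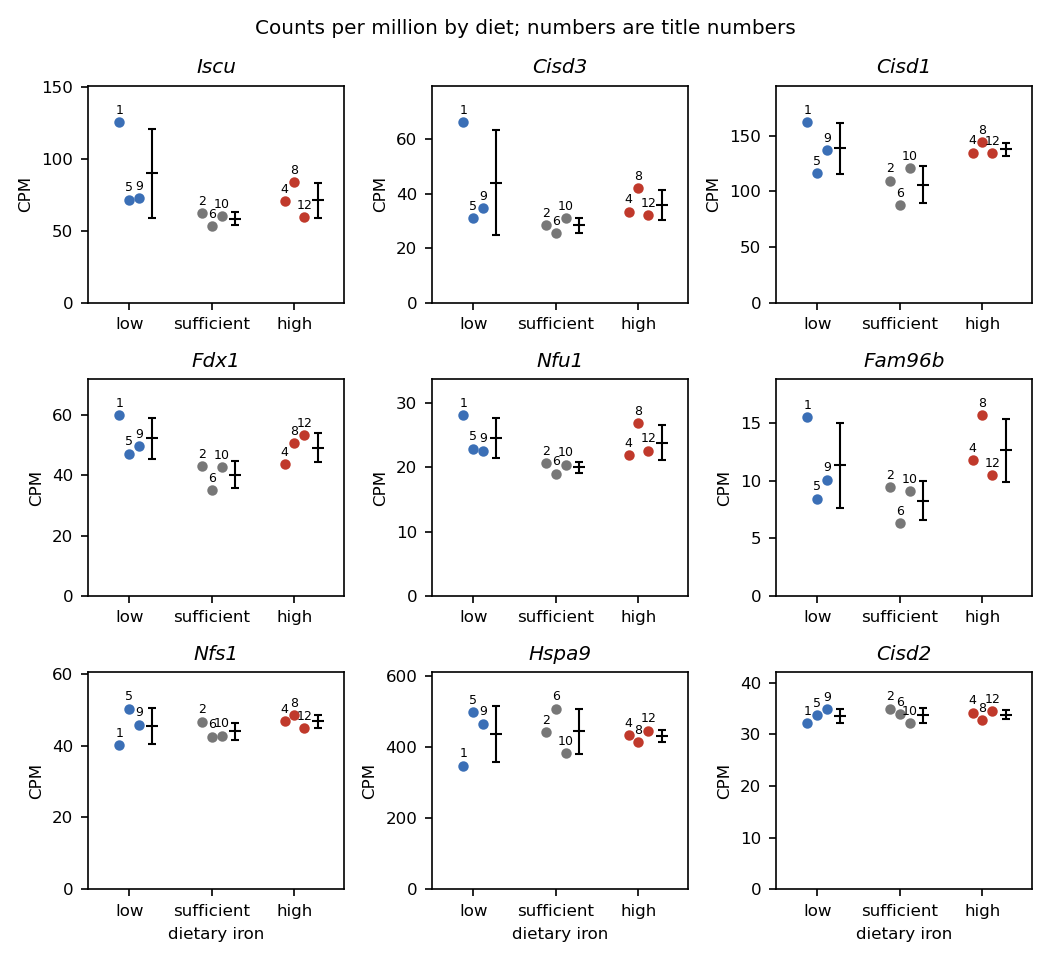
CPM in each library (points, numbered by sample title) by dietary iron for 9 of the genes, with the mean and SD of each diet beside them. Low-iron library 1 stands at 125 CPM for Iscu and 66.4 CPM for Cisd3, far above the other libraries, while Cisd2 stays within 32.1 to 35.0 CPM.

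Set against sufficient iron, the members' fold changes were mostly small and positive on both other diets. On high iron 29 of 30 members had a log2 fold change above 0, where 48.1% of all tested genes did, and the median was 0.19, against -0.011 over all tested genes. On low iron 27 of 30 were above 0, where 49.4% of all genes were, and the median was 0.21, against -0.0040 over all genes. These comparisons share the 3 sufficient-iron libraries. Between high and low iron, which do not involve them, 13 of 30 were above 0 (48.8% of all genes) and the median was -0.020, against -0.0063 over all genes. High-iron and sufficient-iron libraries did not overlap for 8 members, all higher on high iron: Fdx1, Fdx1l, Nfu1, Nubpl, Fam96b, Abcb8, Cisd1 and Cisd3. That is 26.7% of the members, where 8.99% of all genes were higher without overlap. Other mitochondrial lists, read below, had similar shares: 32% of respiratory chain subunits, 23.7% of mitochondrial ribosomal proteins and 30% of tricarboxylic acid cycle enzymes. Low-iron and sufficient-iron libraries did not overlap for 5 members, all higher on low iron: Iscu, Fdx1, Nfu1, Nubpl and Lias. That is 16.7%, against 8.81% of all genes. The same 3 lists had larger shares there, at 72%, 50% and 40%. In either comparison 0 members were lower without overlap, where 8.85% and 7.83% of all genes were. High and low iron overlapped for all 30 members, where 7.59% of all genes were higher and 8.15% lower without overlap. At an unadjusted p under 0.05 there were 2 members on high against sufficient iron (6.67%, against 9.28% of all genes), 5 on low against sufficient iron (16.7%, against 11.2%) and 0 on high against low iron (against 9.65%). The test for any difference among diets gave 3 (Iscu, Fdx1 and Cisd1, against 10.7% of all genes) and the trend 0 (against 8.73%). The 2 on high against sufficient iron became 7 without low-iron library 1, 1 without sufficient-iron library 2, and 0 without sufficient-iron library 6 or high-iron library 8. The 5 on low against sufficient iron became 0 without low-iron library 1, 1 without sufficient-iron library 6, 3 without sufficient-iron library 2 and 7 without low-iron library 5. The 3 of the test for any difference became 0 without sufficient-iron library 2 or 6 or high-iron library 12, 1 without sufficient-iron library 10 or high-iron library 4 or 8, and 5 without low-iron library 5.

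**Figure D3:**
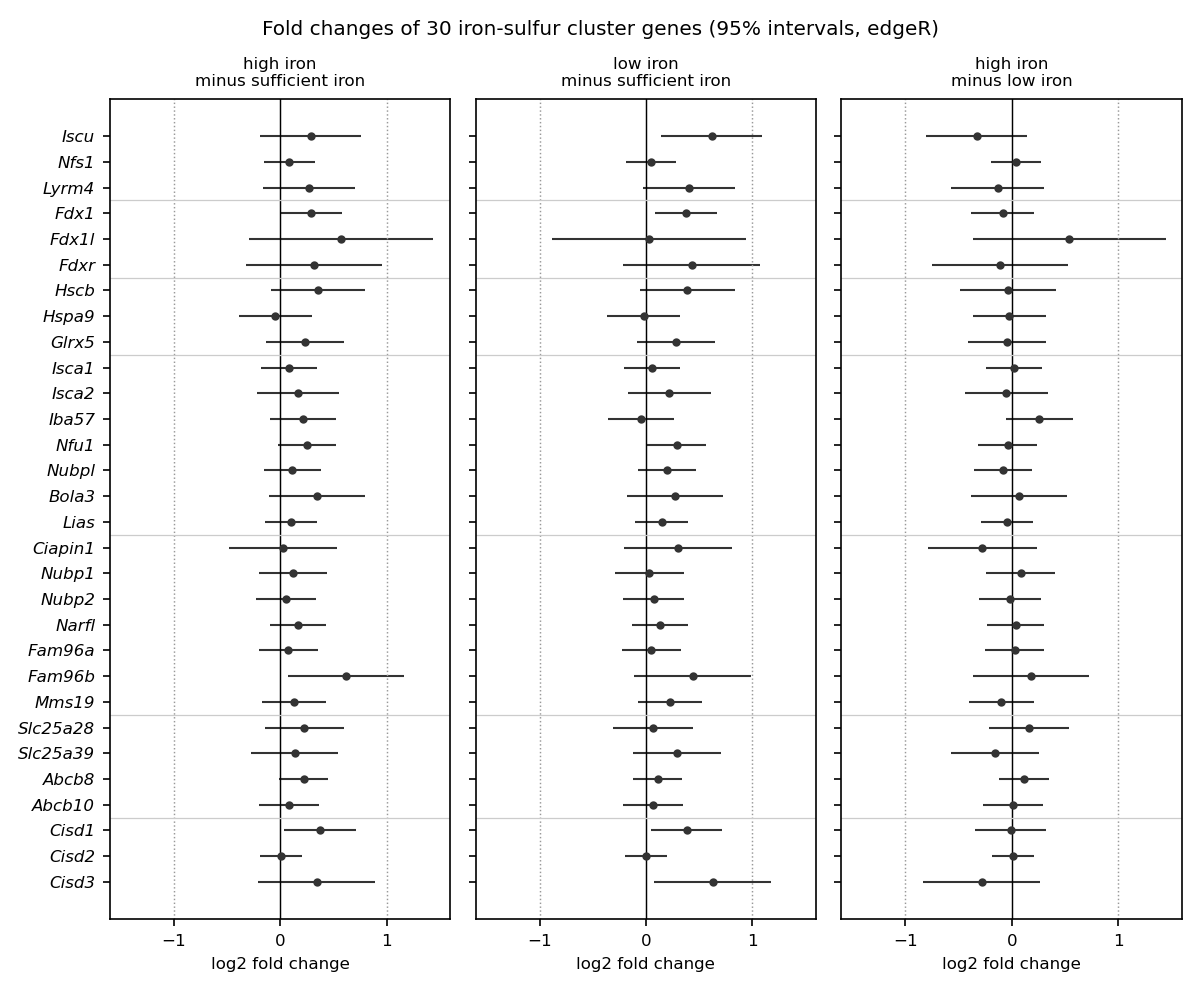
Log2 fold change (horizontal axis; point, with 95% interval) of each gene in high minus sufficient, low minus sufficient and high minus low iron, with dotted lines at a 2-fold change. In the first 2 panels most points lie right of 0, in the third they scatter round it, and the intervals lie inside a 2-fold change either way for 28, 27 and 29 of the 30 genes.

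The intervals bound how large a diet effect these data allow. The 95% interval lay inside a 2-fold change either way for 28 of 30 members on high against sufficient iron (80.0% of all genes), 27 on low against sufficient iron (77.3%) and 29 on high against low iron (79.5%). Those that reached further were Fdx1l and Fam96b in the first comparison, Iscu, Fdxr and Cisd3 in the second, and Fdx1l in the third.

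The members' levels also varied between libraries of the same diet. The member median, as log2 CPM relative to the mean of 9 libraries, was 0.23, -0.025 and 0.00075 in low-iron libraries 1, 5 and 9. It was -0.069, -0.25 and -0.069 in sufficient-iron libraries 2, 6 and 10, and 0.022, 0.19 and -0.044 in high-iron libraries 4, 8 and 12. The SD of this median within a diet was 0.124. Low-iron library 1 held the highest value of 14 members (25% of all tested genes had their highest value there), and sufficient-iron library 6 the lowest value of 19 members (21.2% of all genes). With both left out, 29 of 30 members were above 0 on high against sufficient iron, at a median of 0.11. They were not the same 29, because Hspa9 moved to 0.063 and Abcb10 to -0.012. On low against sufficient iron 21 of 30 were then above 0, at a median of 0.072. Between high and low iron 22 were above 0, at a median of 0.064. Libraries 1 and 12, which held the most Rn45s, were at 0.23 and -0.044, and the part of Rn45s in the medians was not tested. Cell type marker medians, on the same scale, also departed from 0 in low-iron library 1. They were -1.13 for Kupffer cells, -0.78 for cholangiocytes, -0.57 for sinusoidal endothelium and -0.41 for stellate cells. Hepatocyte markers were at 0.16, and the erythroid and pancreas lists, with 1 tested gene each, at 0.48 and 0.50. The part of these in the result was not tested.

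Library deviations also went with transcript length. The members' exons had a median length of 2104 bases, against 3285 bases over all tested genes with a length. Over all tested genes, the deviation of a library from the mean went with exon length at a Spearman rho of -0.37 in low-iron library 1, -0.38 in high-iron library 8 and 0.33 in sufficient-iron library 6, given as a description within each library. Sufficient-iron libraries 2 and 10 were also positive, at 0.21 and 0.19. The values were 0.13 and -0.089 in low-iron libraries 5 and 9, and 0.029 and 0.21 in high-iron libraries 4 and 12. The 15 shorter members had a median deviation of 0.37 in low-iron library 1, against 0.10 for the 15 longer ones. In sufficient-iron library 6 the shorter members were at -0.34 and the longer at -0.17, and in high-iron library 8 at 0.25 and 0.11. With the length trend of each library taken out as an offset, a step chosen after the data were seen, the member median was 0.12 on high and 0.11 on low against sufficient iron. Under that offset Cisd1 was at 0.20 on high iron and 0.11 on low iron, and Nfu1 at 0.083 on high iron and 0.050 on low iron, while Iscu on low iron was at 0.50 and Fdx1 at 0.38. Cisd3 was then at 0.099 on high iron and 0.23 on low iron, and on high iron Fam96b was at 0.39 and Fdx1l at 0.32.

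**Figure D4:**
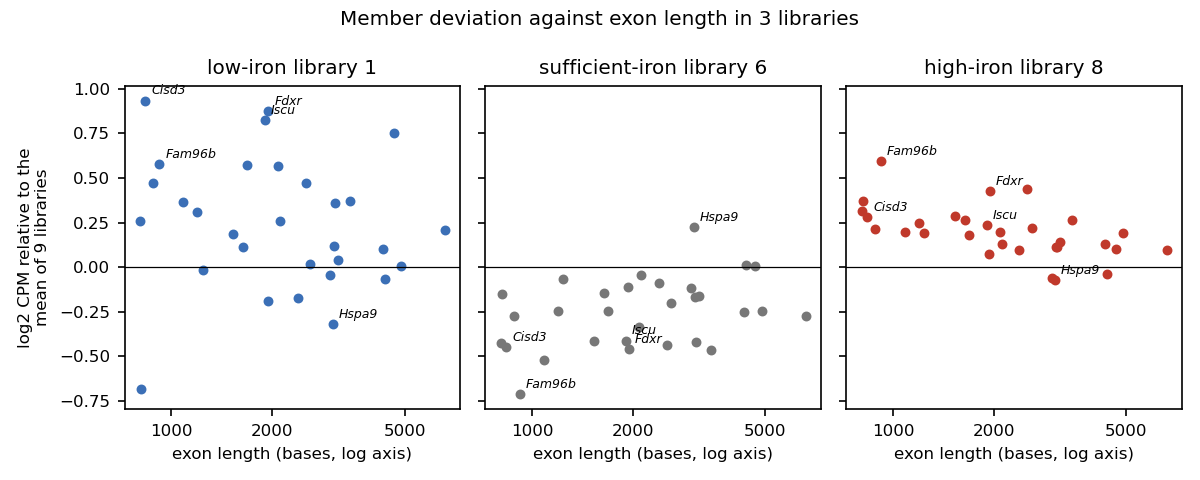
Log2 CPM of each gene relative to its mean over 9 libraries, against exon length on a log axis, in the 3 libraries that deviate most. Cisd3 and Fam96b lie above 0 in low-iron library 1 and high-iron library 8 and below 0 in sufficient-iron library 6, and Hspa9 goes the other way, but in low-iron library 1 the short Fdx1l is at -0.68 and the long Ciapin1 at 0.75.

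Other genes of cluster biology were read from lists of their own. Slc25a37, the erythroid mitoferrin, averaged 41.5 ± 3.85 CPM on high iron and 32.7 ± 3.51 CPM on sufficient iron (0.34 ± 0.11, adjusted p = 0.392). The 12 mitochondrial clients had medians of 0.18 on high and 0.29 on low against sufficient iron, with 0 of 12 past the test. Ferrochelatase (Fech), which inserts iron into haem and itself holds a cluster, had 166, 180 and 161 CPM on high iron, against 115, 136 and 135 CPM on low iron (0.39 ± 0.11, adjusted p = 0.19). Its high-iron libraries were also above the sufficient-iron ones, at 131, 127 and 142 CPM. Sdhb, the cluster subunit of complex II, averaged 189 ± 45.3 CPM on low iron and 122 ± 16.8 CPM on sufficient iron (0.63 ± 0.18, adjusted p = 0.446). Of 23 tested cytosolic and nuclear clients, 1 passed: Rsad2, the interferon-induced radical-SAM enzyme viperin, fell on high iron to 5.36 ± 0.307 CPM, against 20.5 ± 5.05 CPM on sufficient iron (-1.94 ± 0.27, adjusted p = 0.0314). On low iron Rsad2 averaged 12.2 ± 4.47 CPM. Its adjusted p was 0.446 on low against sufficient iron and 0.089 on high against low iron (edgeR). The median of the cytosolic and nuclear clients was -0.090 on high and 0.086 on low iron. Of the 8 genes of lipoylation and lipoyl enzymes 0 passed, and Lipt1, a lipoyl transferase, had 6.59, 6.35 and 6.73 CPM on high iron, against 5.58, 4.76 and 4.28 CPM on sufficient iron (0.43 ± 0.14, adjusted p = 0.399). The 8 haem synthesis genes had medians of 0.048 on high and 0.23 on low iron, with 0 past the test.

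Lists of other mitochondrial genes were read beside them. The 25 tested respiratory chain subunits without a cluster had medians of 0.23 on high and 0.44 on low against sufficient iron, and the 76 mitochondrial ribosomal proteins had 0.23 on high and 0.33 on low iron. The 10 tricarboxylic acid cycle enzymes without a cluster had medians of 0.021 on high and 0.16 on low iron. None of these genes passed the adjusted threshold, which on low against sufficient iron 0% of all tested genes passed. At an unadjusted p under 0.05 (edgeR) in that comparison were 19 respiratory chain subunits (76%), 17 ribosomal proteins (22.4%) and 3 cycle enzymes (30%), against 11.2% of all genes. On high against sufficient iron the shares were 4%, 10.5% and 0%, against 9.28% of all genes. By library, the respiratory chain median was 0.57 in low-iron library 1, -0.38 in sufficient-iron library 6 and 0.21 in high-iron library 8, the same libraries that were highest or lowest for the cluster genes. The ribosomal protein median was 0.44 in low-iron library 1, -0.31 in sufficient-iron library 6 and 0.21 in high-iron library 8.

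**Figure D5:**
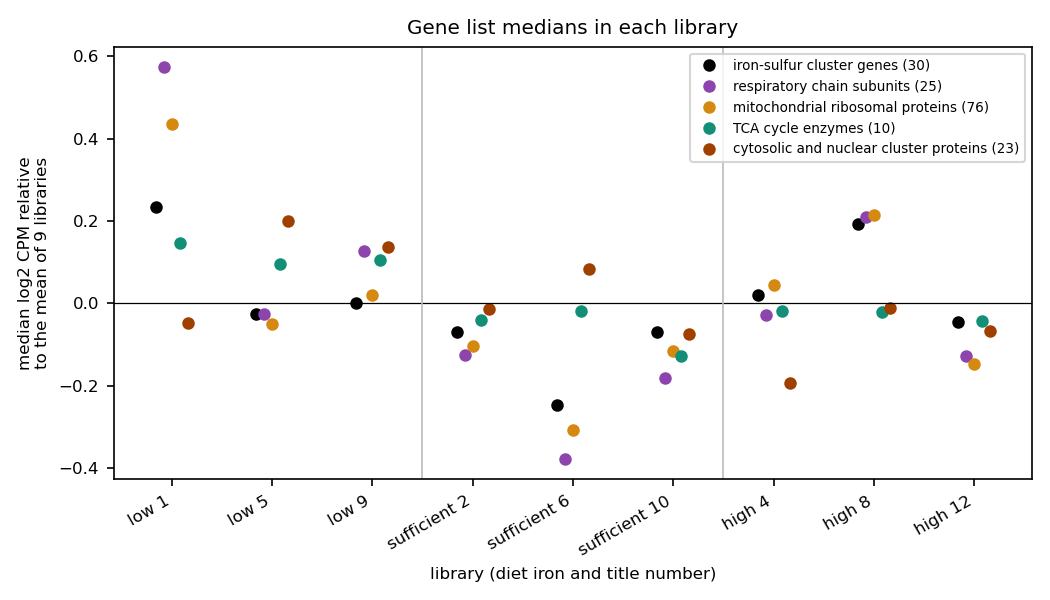
Median log2 CPM of 5 gene lists in each library, relative to the mean of 9 libraries, by diet iron. The iron-sulfur cluster genes (black) lie at 0.23 in low-iron library 1, -0.25 in sufficient-iron library 6 and 0.19 in high-iron library 8, beside the respiratory chain and mitochondrial ribosomal lists, while the cytosolic and nuclear cluster proteins lie at -0.048, 0.085 and -0.010 there.

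Promoter windows of 300 bases around the annotated start were read from RefSeq (GRCm38.p6) for 26 of the 30 members; Iscu, Hscb, Hspa9 and Abcb8 had no entry. Cisd1, Nfu1 and Fdx1, whose high-iron libraries all stood above the sufficient-iron ones, and Cisd2, which varied least, are shown to compare their letters, with matches to the NRF1 motif (GCGCA and GCGC with any 1 base between) on either strand in capitals. NRF1 is a transcription factor of nuclear genes for mitochondrial proteins. The windows are Cisd1 (chr10:71344800-71345099, minus strand), Nfu1 (chr6:87009586-87009885, plus strand), Fdx1 (chr9:51963553-51963852, minus strand) and Cisd2 (chr3:135423384-135423683, minus strand). They follow RefSeq starts. The GENCODE M21 genes begin outside these windows for Nfu1 (87009236) and Cisd2 (135423925), so the windows may miss other starts.
Cisd1: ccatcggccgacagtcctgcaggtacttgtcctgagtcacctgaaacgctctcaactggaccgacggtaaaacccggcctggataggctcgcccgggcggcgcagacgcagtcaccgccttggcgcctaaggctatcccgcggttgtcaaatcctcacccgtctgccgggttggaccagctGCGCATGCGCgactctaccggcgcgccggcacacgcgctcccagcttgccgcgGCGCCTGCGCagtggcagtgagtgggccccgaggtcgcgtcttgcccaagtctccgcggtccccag
Nfu1: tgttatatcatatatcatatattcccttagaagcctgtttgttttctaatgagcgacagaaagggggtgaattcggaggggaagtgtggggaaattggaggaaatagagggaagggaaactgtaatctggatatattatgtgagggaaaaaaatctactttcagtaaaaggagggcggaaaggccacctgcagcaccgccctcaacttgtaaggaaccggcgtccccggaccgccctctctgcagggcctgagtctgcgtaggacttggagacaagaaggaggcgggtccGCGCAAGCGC
Fdx1: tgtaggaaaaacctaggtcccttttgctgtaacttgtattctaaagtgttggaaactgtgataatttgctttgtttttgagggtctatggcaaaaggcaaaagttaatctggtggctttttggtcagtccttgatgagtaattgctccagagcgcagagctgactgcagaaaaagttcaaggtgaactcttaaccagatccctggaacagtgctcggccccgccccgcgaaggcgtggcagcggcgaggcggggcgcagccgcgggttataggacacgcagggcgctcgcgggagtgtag
Cisd2: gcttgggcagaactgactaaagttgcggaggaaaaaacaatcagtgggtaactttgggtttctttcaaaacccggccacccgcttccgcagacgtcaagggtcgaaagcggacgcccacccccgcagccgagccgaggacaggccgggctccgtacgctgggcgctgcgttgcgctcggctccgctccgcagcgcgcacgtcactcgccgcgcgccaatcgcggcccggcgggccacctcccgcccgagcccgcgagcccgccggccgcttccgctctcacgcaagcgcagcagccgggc
Cisd1 held 2 matches and Nfu1 1, while Fdx1 and Cisd2 held none in these windows. Over the 26 windows, 6 members held the NRF1 motif (Isca1, Nfu1, Nubp1, Mms19, Abcb10 and Cisd1), which is 23.1%, against 6.6% of 17492 protein-coding genes. Their log2 fold changes on high against sufficient iron were 0.082, 0.25, 0.12, 0.13, 0.081 and 0.37. Among members whose windows hold no match, Fam96b was at 0.62, Fdx1l at 0.57, Cisd3 at 0.34 and Fdx1 at 0.29. Ciapin1 and Cisd2, also without a match, were at 0.027 and 0.0054. The ETS motif CCGGAAGT was in 4 members (15.4%, against 5.29% of genes), the YY1 motif AAGATGGC in 3 (11.5%, against 3.22%), the antioxidant response core TGACNNNGC in 3 (11.5%, against 13.2%) and the SP motif GGGGCGGGG in 5 (19.2%, against 15.5%). Each was searched on both strands, and a match is a description of letters only.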

How the data were processed

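Per the labels' protocols, liver RNA was extracted with RNeasy columns, made into TruSeq libraries and sequenced on an Illumina HiSeq. The deposited tables, 1 per library, hold raw counts for each gene symbol. The submitters' processing notes name FastQC, mm10 and mm9; the aligner, counter and strandedness were not given in the sources used here. Each table closes with 5 category entries, which show that ambiguous and multiply aligned reads were set aside; they entered neither library sizes nor tests. Counts of Iscu, Nfs1, Isca1, Nfu1 and Fam96a, which have near-identical copies in GENCODE M21, and of Nfs1, Lyrm4, Ciapin1, Nubp1, Narfl and Mms19, which share exon bases with a counted gene on the other strand, are uncertain.

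In R 4.3.3, edgeR 4.0.16 (filterByExpr, TMM scaling, robust quasi-likelihood fit, diet as the only term) was run on all 9 libraries and 13020 genes, with Benjamini-Hochberg adjustment over all of them and 0.05 as threshold. P-values measure the spread between mice, 3 per diet. CPM used TMM-scaled library sizes and log2 CPM a prior count of 2; SE is the absolute log2 fold change over the root of F. The model was tested on simulated data. Alternatives were 2 other filters, 2 other scalings, DESeq2 1.42.0, limma-voom (limma 3.58.1) with and without quality weights, pairwise fits, a block, 2 genes left out, libraries left out and a length offset. Exon lengths and coordinates are from GENCODE M21 (GRCm38). The 30 members, gene lists and naming rule were chosen with earlier results of these data known. All members are named; of other lists, genes past the threshold and up to 2 with the lowest p per comparison were eligible. A list of further assembly factors is not reported here as a whole.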

Additional observations from a re-analysis of the deposited data

How the results depend on the processing

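Over 21 alternative fits per pairwise comparison, 0 of 30 members passed the adjusted threshold. At an unadjusted p under 0.05 the reported fit had 2 members on high against sufficient iron, 5 on low against sufficient iron and 3 in the test for any diet difference; over the alternatives the ranges were 0 to 7, 0 to 7 and 0 to 5 members. The member median on high against sufficient iron ranged from 0.11 to 0.24, and leaving out 1 library in turn gave 0.11 to 0.24. On low against sufficient iron it was 0.076 with limma-voom quality weights and 0.072 with low-iron library 1 and sufficient-iron library 6 both left out; 1 library left out in turn gave 0.12 to 0.30. On high against low iron the median ranged from -0.069 to 0.073. The sign of at least 1 alternative differed from the fit reported for 7 members on high against sufficient iron, 16 on low against sufficient iron and 23 on high against low iron, none of them past the threshold; the cause was not tested. The count of all tested genes past the threshold was 28 on high against sufficient iron (0 to 202 over the alternatives, the most with DESeq2), 0 on low against sufficient iron (0 to 82) and 66 on high against low iron (0 to 378); the test for any diet difference gave 28 (0 to 406) and the trend 40 (0 to 299). No paired analysis was possible because the diets share no replicate number in the sample titles; consecutive title numbers as a block gave medians of 0.19 on high against sufficient iron, 0.20 on low against sufficient iron and -0.016 on high against low iron, and changed no call of a member. With 3 mice per diet, the common biological coefficient of variation was 0.177, and low depth bears mainly on Fdx1l (at least 4 reads per library).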
